A study of Mus musculus with 6 samples.

Results

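Sorted cell pools named SF5_6 were compared across all genes with the pools named SF3 and SF4. The libraries were chosen by the pool name in their labels, which gave 2 SF5_6 libraries and 4 SF3 or SF4 libraries, all 6 of the study. The split itself was chosen from these data, because the SF5_6 libraries stand apart from the rest, so every difference between the sides is a description and carries no test.

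The study asked how reduced BMP signalling changes radial glia, the stem-like progenitors of the developing forebrain. Cells were taken from dissociated forebrains of mouse embryos at embryonic day E12.5 by flow sorting for Prominin1, a membrane protein of neural progenitors. Control pools were Smad1wt/fl;Smad5wt/fl;Nestin:Cre0/0, and SmadNes pools were Smad1wt/fl;Smad5wt/fl;Nestin:Cre+/0. Each pool name (SF3, SF4, SF5_6) has 1 control and 1 SmadNes library, so genotype and pool name are balanced. Per the labels, which were not checked for this in the data, both genotypes carry 1 floxed and 1 wild-type allele of Smad1 and of Smad5, genes for the transcription factors that carry BMP signals. In SmadNes pools, Nestin:Cre adds a recombinase driven from the promoter of a neural progenitor gene. All were of mixed CD1, 129/ola and C57BL6 background. The labels do not say how many embryos made a pool, nor what the numbers in a pool name stand for.

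The embryonic forebrain is divided early into the telencephalon, which forms the cortex dorsally (pallium) and the ganglionic eminences ventrally, and the diencephalon and hypothalamus behind and below it. Each region is recognised by the transcription factors its cells make, and signalling centres at the borders of the cortex, among them the cortical hem and the rostral midline, release WNT, BMP and FGF proteins. Progenitors also change with age: young ones make Lin28 and Hmga proteins, and older ones turn on nuclear factor I genes and make intermediate progenitors and neurons.

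Libraries held between 32997423 and 40744672 expected counts, and 17393 of 52636 genes passed the filter on low counts. Prom1, the sort marker, did not separate the sides. It was at 106, 110, 124 and 129 CPM (counts per 1000000 counts, with TMM scaling) in the SF3 control, SF3 SmadNes, SF4 control and SF4 SmadNes libraries, and at 129 and 132 CPM in the SF5_6 control and SmadNes libraries. All values below follow this order. Nor were Smad1 (log2 difference -0.03, SE 0.05) and Smad5 (-0.07, SE 0.04) apart, and radial glial Pax6, Fabp7 and Slc1a3 overlapped between the sides. Radial glial Nes and Sox2 were higher in both SF5_6 libraries, by 1.22-fold and 1.29-fold in the means, and were not called. The first principal component of log2 CPM held 53.7% of the variance and placed the SF5_6 libraries at 47.7 and 46.7 and the other libraries between -43.3 and -7.08. The second component, with 22.1%, separated SF3 from SF4.

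In a fit with genotype as a term (edgeR), 1520 genes were called higher in SF5_6, which is 8.74% of the genes tested, and 1843 lower, which is 10.6%. Called genes have a Benjamini-Hochberg adjusted p below 0.05, and these counts describe a split chosen on the same values. Both SF5_6 libraries lay above the other 4 for 4054 genes (23.3%) and below them for 4287 (24.6%). The high side held the larger differences. A difference of at least 2-fold in the same direction in both genotypes was seen for 557 genes upward (3.2%) and for 201 downward (1.16%). Counts of calls need both SF5_6 libraries: without the SF5_6 control library 124 genes were called higher and 301 lower, and without the SF5_6 SmadNes library 202 and 299.

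**Figure D1:**
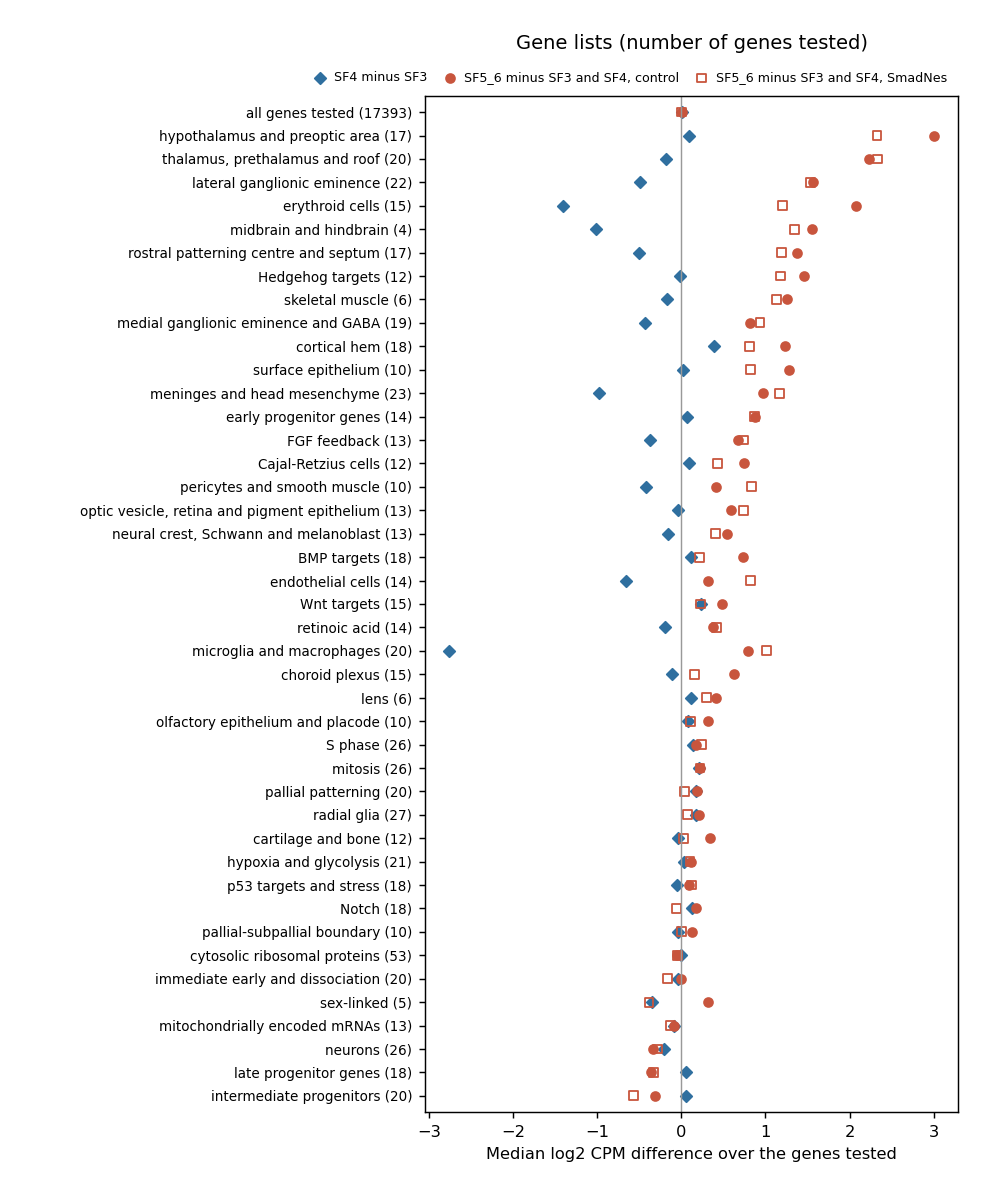
Median log2 CPM difference (x axis) of each gene list (y axis, number of genes tested in brackets), for SF5_6 minus the mean of SF3 and SF4 in control libraries (filled circles) and SmadNes libraries (open squares), and for SF4 minus SF3 averaged over genotypes (diamonds). Hypothalamic and thalamic lists lie farthest to the right, with medians between 2.23 and 3.01, while all genes tested lie at 0.

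The widest gap was in transcripts of the hypothalamus. Of 24 listed hypothalamic and preoptic genes, 17 were tested and 14 were called higher (background 8.74%), with a median log2 difference of 3.41 against 0.003 over all genes tested. Summed over the list, the level was 23.97, 24.8, 17.6 and 14.1 CPM in SF3 and SF4 and 153 and 79.1 CPM in SF5_6. In pools of cells, fewer cells of a type and less RNA per cell cannot be told apart, here and in all that follows.

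Nkx2-2 encodes a homeodomain factor of the ventral neural tube and hypothalamus (chr2:147177546-147194243, minus strand, GRCm38). It had no count in any SF3 or SF4 library and stood at 1.91 and 1.58 CPM in SF5_6. Against a limit of 3 counts over the 4 libraries, this is at least 84.7-fold higher. Otp, a factor of neuroendocrine neurons (chr13:94875602-94885130, plus strand), was at 0, 0.0526, 0.0248 and 0.0304 CPM and at 11.3 and 2.68 CPM in SF5_6. The sides were far apart, but the 2 SF5_6 libraries also differed from each other, with more in the control. Foxb1, a forkhead factor of the mammillary region, had 2 counts over the 4 low libraries and was at 1.03 and 1.12 CPM in SF5_6, a ratio of 70.8 with a counting interval from 20.9 to 659. Sim1, a factor of the paraventricular nucleus, was at 0.203, 0.237, 0.199 and 0.0911 CPM against 4.16 and 3.95. Both SF5_6 libraries were alike for Sim1 and exceeded all others. Shh, the ventral signalling protein, was at 0.521, 0.0526, 0.0496 and 0 CPM against 4.11 and 1.35, and the optic and hypothalamic factor Six6 at 0.203, 0.184, 0.0993 and 0 CPM against 3.49 and 0.432. For both genes each SF5_6 value was more than 2 times the highest value of the other side, and the SF5_6 control library held the most. The remaining 7 list members did not pass the filter. Gal and Hcrt, neuropeptides of mature hypothalamic neurons, had 5 and 2 counts in all, and Foxa2, a floor plate factor, overlapped between the sides.

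Thalamic, prethalamic and diencephalic roof genes formed the next group. Of 23 listed, 20 were tested, and all 20 were higher in both SF5_6 libraries than in any other (background 23.3%). Of these, 16 were called higher (background 8.74%), with a median log2 difference of 2.35 over the 20. Gbx2, needed for thalamic neurons (chr1:89927956-89931179, minus strand), was at 0.0579, 0.0789, 0 and 0 CPM against 6.69 and 6.22. Olig3, a basic helix-loop-helix factor of thalamic progenitors, stood at 0.261, 0.263, 0.248 and 0.243 CPM against 8.15 and 5.45, which is 26.8-fold in the means. The 4 low libraries hardly differed from each other for Olig3. Irx1 (0.174, 0, 0.0496 and 0.152 CPM against 2.14 and 2.85) and Irx2 (0.116, 0.184, 0.124 and 0.152 against 1.91 and 3.57) encode Iroquois factors made behind the telencephalon. Gata2, a zinc finger factor of GABAergic neurons of the diencephalon and midbrain, was at 0.528 CPM in the SF5_6 control and 2.22 CPM in the SF5_6 SmadNes library, with at most 0.105 CPM elsewhere. For Gata2 and both Iroquois genes the SmadNes library was the higher of the SF5_6 pair. Tcf7l2, a transcriptional effector of WNT signals abundant in the thalamus and named here after its values were seen, was at 9.79, 11.3, 11.1 and 10.7 CPM against 65.8 and 73.5, a log2 difference of 2.70 (SE 0.07). Shox2, a homeobox gene outside the lists that entered by its difference (chr3:66971727-66981771, minus strand), had 5 counts over the 4 low libraries and 13.49 and 13.02 CPM in SF5_6.

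Most transcripts of more posterior regions were near 0, and the few that passed the filter were mostly higher in SF5_6. Of 23 midbrain and hindbrain genes only 4 passed the filter, and Hoxa2, Hoxb1, Hoxb3, Hoxa3, Hoxd3 and Gata4 had no count in any library. En1 and En2, engrailed factors of the midbrain-hindbrain border, reached at most 0.0576 and 0.0607 CPM. Of the 4 tested, 1 was called higher (background 8.74%) and 3 lay above in both SF5_6 libraries (background 23.3%). The list summed to 2.75, 2.68, 1.94 and 1.55 CPM against 6.80 and 5.19. Th, the enzyme that makes the dopamine precursor, was the list's member with the widest difference, at 0.608, 0.289, 0.397 and 0.334 CPM against 2.11 and 2.02. Pax5 was at 1.48, 1.61, 0.943 and 0.941 CPM against 3.08 and 2.22, and it was not called.

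**Figure D2:**
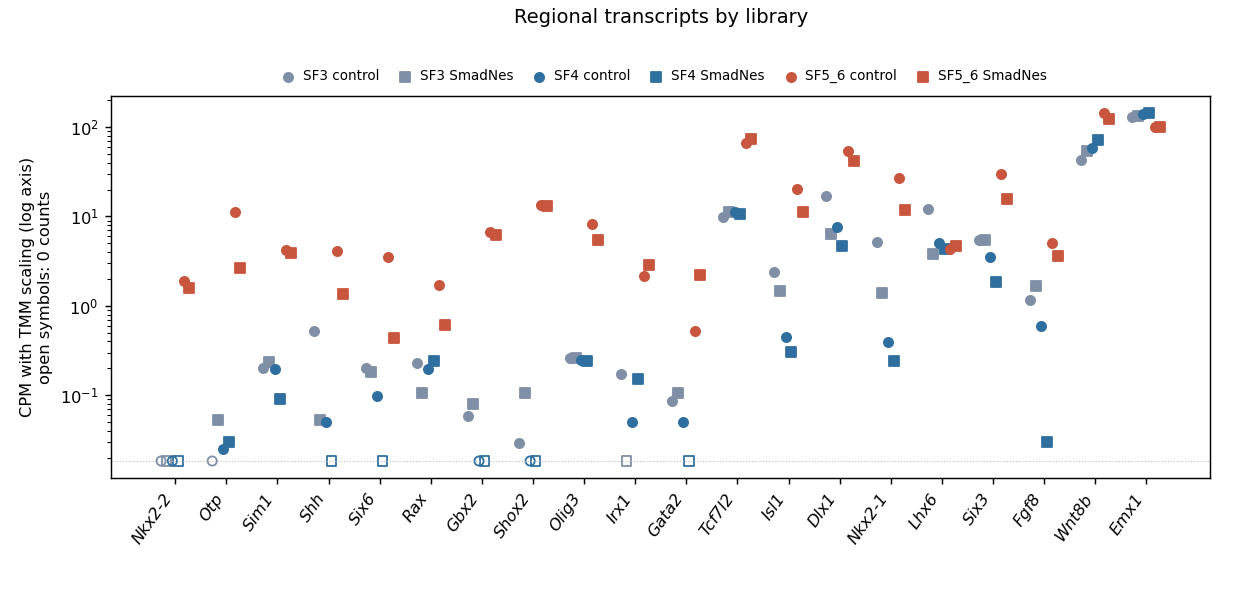
Level in CPM (log axis) of regional genes in each library, with SF5_6 in red, SF3 in grey, SF4 in blue, circles for control and squares for SmadNes. Open symbols on the dotted line had 0 counts. SF5_6 libraries lie above the others for the hypothalamic, thalamic and eminence genes other than Lhx6, and below them for Emx1.

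Ventral telencephalic genes were higher too. Of 22 tested genes of the lateral ganglionic eminence, the source of striatal and olfactory bulb neurons, 15 were called higher and 1 lower (backgrounds 8.74% and 10.6%), with a median log2 difference of 1.66. Gsx2, which sets eminence identity, was at 0.492, 0.237, 0.149 and 0.121 CPM against 2.52 and 2.42, and its relative Gsx1 was at 2.17 and 1.07 CPM in SF5_6 and at most 0.174 CPM elsewhere. Dlx1, a factor of GABAergic precursors, was at 16.9, 6.31, 7.52 and 4.65 CPM against 53.8 and 41.3. Isl1, made in striatal and hypothalamic neurons, was at 2.37, 1.45, 0.447 and 0.304 CPM against 20.4 and 11.3. SF3 exceeded SF4 for Isl1, and SF5_6 exceeded both.

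Medial eminence and GABA genes split. Of 19 tested, 9 were called higher and 1 lower (backgrounds 8.74% and 10.6%), with a median of 1.17. Nkx2-1, the factor that sets medial eminence and also hypothalamic identity, was at 5.18, 1.39, 0.397 and 0.243 CPM against 27.0 and 11.7, and Gad2, a GABA synthesis enzyme, at 12.54, 4.68, 7.30 and 4.28 against 37.2 and 28.6. Lhx6, which marks the migrating interneurons of the medial eminence, was not higher, at 12.2, 3.76, 5.04 and 4.28 CPM against 4.31 and 4.64. Sst, the interneuron peptide somatostatin, stood at 6.08, 1.66, 3.25 and 2.58 CPM against 2.38 and 1.21. For both genes, named after their values were seen, the SF3 control library was the highest and SF5_6 lay within or below the range of the rest.

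Signalling centres at the cortical border stood higher as well. In the list of the rostral patterning centre and septum, 16 of 17 genes were higher in both SF5_6 libraries than in the rest (background 23.3%). Of the 17, 12 were called higher (background 8.74%), and the median was 1.31. Six3, a factor of the rostral forebrain, was at 5.50, 5.39, 3.55 and 1.85 CPM against 29.7 and 15.5. Fgf8, the FGF ligand of the rostral midline, was at 1.16, 1.66, 0.596 and 0.0304 CPM against 5.04 and 3.63. The sides did not overlap for Fgf8, SF4 lay below SF3, and the gene was not called. The SF4 SmadNes value rests on 1 count.

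In the cortical hem, the dorsal midline source of WNT and BMP proteins, 13 of 18 genes were called higher and none lower (backgrounds 8.74% and 10.6%). The list's median was 1.02. Wnt8b was at 42.6, 54.1, 57.8 and 71.9 CPM against 142 and 124, and Bmp4 at 3.88, 4.50, 3.57 and 3.37 against 11.03 and 9.88. The SF5_6 libraries were highest for both ligands, by 2.35-fold and 2.73-fold in the means. Genes of the choroid plexus, which the hem borders, did not separate: 1 of 15 tested was called higher (background 8.74%). That gene was Otx2, which the diencephalon also makes, at 23.9, 26.1, 27.7 and 25.8 CPM against 70.2 and 54.97.

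Pallial genes went both ways, with 6 of 20 called higher, 4 lower (backgrounds 8.74% and 10.6%) and a median of 0.15. Emx1 and Fezf2, factors of cortical progenitors and deep-layer neurons, were 1.37-fold and 1.46-fold lower. Fezf1, made in the early rostral forebrain and the hypothalamus, was at 1.13, 1.53, 0.918 and 0.698 CPM against 18.5 and 11.4. Of 13 tested optic genes, 5 were called higher and 2 lower (the same backgrounds). Rax, a factor of the eye field and hypothalamus, was at 0.232, 0.105, 0.199 and 0.243 CPM against 1.70 and 0.605, and Aldh1a3, a retinoic acid synthesis enzyme, at most at 0.0911 CPM against 1.85 and 1.01. Rlbp1, a retinoid carrier, was lower (35.9, 31.4, 33.8 and 31.2 CPM against 11.8 and 12.47). Pigment genes Tyr, Pmel, Mlana, Slc45a2 and Oca2 did not pass the filter.

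Target genes of several secreted signals were called higher more often than lower. Of 12 tested Hedgehog genes, 7 were called higher and 2 lower (backgrounds 8.74% and 10.6%), with a median of 1.31. The lists overlap: Nkx2-2 and Shh are also hypothalamic list members, Gli1, Ptch1 and Hhip medial eminence members and Olig2 a thalamic one. Gli1, the transcription factor that reads out the pathway, was at 2.49, 2.97, 2.76 and 2.10 CPM against 7.45 and 6.63. Ptch1, the receptor and target of the pathway, was at 24.1, 24.99, 22.9 and 24.7 CPM against 63.8 and 45.8, the SF5_6 control library being the highest.

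FGF feedback genes were called higher in 9 of 13 cases and lower in none (backgrounds 8.74% and 10.6%). The list overlaps with that of the rostral patterning centre and septum, which also holds Etv1 and Spry4. Etv1, an FGF-induced factor, was at 20.8, 18.4, 17.7 and 12.6 CPM against 60.8 and 57.6, and Il17rd, a membrane inhibitor of FGF signals, at 31.6, 34.2, 24.2 and 20.4 against 65.3 and 63.4. No SF5_6 value of either gene came near the other side.

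BMP target genes respond to the Smad proteins whose genes are labelled as carrying a floxed allele. Of 18, 8 were called higher and 2 lower (backgrounds 8.74% and 10.6%), with a median of 0.50. This list overlaps with regional ones: Msx2 is also a cortical hem member and Gata2 a thalamic one, and both were called higher. Id3, an inhibitor of basic helix-loop-helix factors, was at 13.6, 14.1, 14.6 and 15.03 CPM against 52.2 and 34.7, and Id1 at 5.79, 5.31, 6.35 and 6.80 against 16.4 and 11.1. The SF3 and SF4 libraries were close for both, with SF5_6 above them and the SF5_6 control above the SF5_6 SmadNes library. The list's median was 0.74 in control and 0.21 in SmadNes libraries, a difference that was not tested. Among WNT targets 5 of 15 were called higher and none lower (backgrounds 8.74% and 10.6%). Axin2, a feedback inhibitor, was at 81.4, 96.1, 110 and 116 CPM against 164 and 146. Notch genes went in no common direction, with 3 of 18 called higher, 1 lower (the same backgrounds) and a median of 0.04.

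Progenitor genes separated by developmental age. Of 14 genes of early progenitors, 10 were called higher and 1 lower (backgrounds 8.74% and 10.6%), with a median of 0.85. Hmga2, a chromatin protein of young stem cells (chr10:120361275-120476469, minus strand), was at 40.3, 48.8, 55.1 and 41.6 CPM against 180 and 206. Lin28b, an RNA-binding protein that blocks the maturation of let-7 microRNAs, was at 7.12, 7.602, 6.30 and 5.01 CPM against 22.1 and 20.9. In each SF5_6 library both were well over 2 times the highest SF3 or SF4 value. Markers of head mesenchyme and red cells, whose values are given further on, were higher in the same libraries, and their part in these differences was not tested. SF4 minus SF3 was -0.99 on the log2 scale in the median of the mesenchymal list and -1.41 in that of the red cell list. The same difference was -0.99 for Trim71, -0.95 for Lin28a, -0.81 for Dlk1 and -0.39 for Lin28b, and it was 0.20 for Crabp2, 0.11 for Hmga2 and 0.07 for Ccnd1. Crabp2 is itself also a member of the mesenchymal list. These values are given as a description only.

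Lin28a, the relative of Lin28b that is lost first in neural development (chr4:134003330-134018841, minus strand), had 4 counts over the 4 low libraries and was at 1.496 and 1.21 CPM in SF5_6. Trim71, an RNA-binding ubiquitin ligase of early embryos, was at 0.319, 0.395, 0.149 and 0.152 CPM against 3.28 and 2.22. Trim71 rested on 5 to 15 counts in each SF3 or SF4 library and on 112 and 77 in SF5_6. Ccnd1, the G1 cyclin, was at 71.3, 79.0, 89.0 and 70.0 CPM against 192 and 181. Dlk1, an imprinted growth regulator, was at 11.6, 11.4, 7.37 and 5.77 CPM against 62.3 and 30.7. The exceptions included Hmga1, which was lower (128, 148, 170 and 158 CPM against 115 and 104), and Nr6a1, an early germ cell nuclear factor with overlapping values (7.29 to 8.17 CPM against 8.24 and 7.92). Sfrp1, of the same list, was another, with a log2 difference of -0.025.

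Several of these transcripts are textbook targets of let-7, whose members share 1 seed, bases 2 to 8 of the mature RNA, shown here in capitals to make the pairing visible. These mature sequences are from RefSeq (GRCm38.p6).
mmu-let-7a-5p: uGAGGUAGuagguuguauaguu
mmu-let-7i-5p: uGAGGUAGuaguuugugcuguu
mmu-miR-98-5p: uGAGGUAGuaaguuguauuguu
The DNA letters that pair with that seed, CTACCTC, were searched on the transcribed strand of the longest annotated 3′ UTR of each gene (GENCODE M21, GRCm38). The first match is printed, with 15 bases before it and 1 after and the match in capitals, for 4 early progenitor genes that were called higher and hold one, chosen after their values were seen.
Hmga2 (chr10:120364224-120364246, minus strand): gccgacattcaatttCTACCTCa
Lin28b (chr10:45381022-45381044, minus strand): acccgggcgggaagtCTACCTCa
Lin28a (chr4:134005189-134005211, minus strand): gcacagcctgttgaaCTACCTCa
Trim71 (chr9:114512472-114512494, minus strand): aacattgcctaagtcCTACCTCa

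There were 4 such matches in Hmga2, 4 in Lin28b, 2 in Lin28a and 4 in Trim71. In all, 9 of the 14 early progenitor genes held a match, against 10.7% of the 14226 tested genes with a 3′ UTR, but the list was assembled from genes known to be early and known let-7 targets are among them. Their 3′ UTRs were also longer, with a median of 2875 bases, and held 0.707 matches per kilobase. Dlk1, Ccnd1 and Crabp2, a retinoic acid binding protein, were higher by log2 differences of 2.30, 1.27 and 1.22 and held no match. Nr6a1 held 8 matches and did not separate the sides, and Igf2bp1 held 4 and was only 1.38-fold higher. Hmga1 held 1 match and was lower (log2 difference -0.46), and Igf2bp2 and Igf2bp3 held 1 each, with log2 differences of 0.28 and 0.29. Of genes called higher in SF5_6, 15.3% held a match and their median 3′ UTR was 1584 bases long, and of genes called lower 11.9% with a median of 1623 bases. Over all tested genes the median length was 1220 bases. Per kilobase of 3′ UTR there were 0.0953 matches in the former, 0.0619 in the latter and 0.0723 in all. A match is a run of letters and not a shown binding site, and microRNAs were not measured here.

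Genes of older progenitors were lower in part. Of 18, 8 were called lower and none higher (backgrounds 10.6% and 8.74%), with a median of -0.37. For 9 of them both SF5_6 libraries lay below the rest (background 24.6%), and the others overlapped between the sides. The nuclear factor I genes, which drive the switch to later progenitors and glia, were lower in both SF5_6 libraries: Nfix was at 1013, 1145, 1027 and 1259 CPM against 419 and 389, Nfib at 2617, 2693, 2490 and 2771 against 1302 and 1342, and Nfia at 782, 821, 807 and 853 against 515 and 491. No SF5_6 value reached the lowest value of the other side for any of the 3. Bcan, a matrix proteoglycan, was at 25.5, 33.7, 29.4 and 43.5 CPM against 9.56 and 7.46, and Aldoc, a glycolytic enzyme of glia, at 98.6, 112, 111 and 117 against 42.6 and 48.6.

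Radial glial genes as a whole moved little, with 3 of 27 called higher, 2 lower (backgrounds 8.74% and 10.6%) and a median of 0.15. For 11 of the 27 both SF5_6 libraries lay above the rest and for 2 below (backgrounds 23.3% and 24.6%). Nes, the intermediate filament of progenitors, was at 384, 421, 458 and 450 CPM against 483 and 565, and Sox2, a stem cell factor, at 111, 120, 134 and 146 against 173 and 157. Both SF5_6 values were highest in each case, by 1.22-fold and 1.29-fold in the means, and neither gene was called. S phase genes had 8 of 26 called higher and none lower (backgrounds 8.74% and 10.6%). Among them Uhrf1, which maintains DNA methylation, was at 158, 175, 182 and 172 CPM against 227 and 243. Of 26 mitosis genes, 20 lay above in both SF5_6 libraries (background 23.3%) and 1 was called higher (background 8.74%). That gene, Bub1, was at 67.4, 74.4, 78.0 and 77.6 CPM against 86.9 and 95.5. The medians of the S phase and mitosis lists, 0.20 for both, were close to the 0.13 and 0.21 by which SF4 exceeded SF3.

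**Figure D3:**
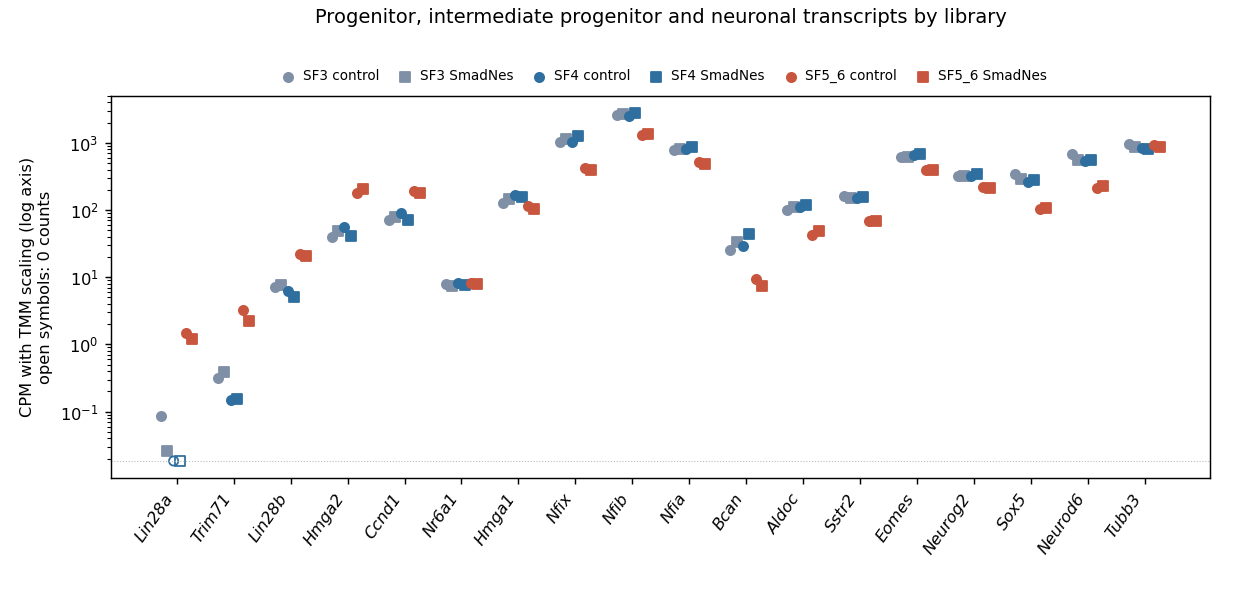
Level in CPM (log axis) of genes of early and late progenitors, intermediate progenitors and neurons in each library; colours and symbols mark pool names and genotypes as in the legend, and open symbols had 0 counts. SF5_6 libraries are highest for Lin28a to Ccnd1 and lowest for Hmga1 and for Nfix to Neurod6, while Nr6a1 and Tubb3 overlap.

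Of 20 genes of intermediate progenitors, the dividing precursors between radial glia and cortical neurons, 12 were called lower and none higher (backgrounds 10.6% and 8.74%). The list's median was -0.48. Eomes, the defining factor of these cells, was at 622, 612, 650 and 675 CPM against 396 and 391. Sstr2, a somatostatin receptor, was at 161, 151, 153 and 159 CPM against 67.6 and 68.1, 2.30-fold lower. Insm1, a zinc finger factor that promotes the birth of these cells, was at 227, 200, 211 and 207 CPM against 140 and 109. The spread within each side was small beside the gap for Eomes and Sstr2, and the SF5_6 libraries differed from each other more for Insm1.

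Neuronal genes were lower in part: 15 of 26 were called lower and 2 higher (backgrounds 10.6% and 8.74%), with a median of -0.32. The lower ones included factors of cortical projection neurons. Sox5 was at 343, 286, 264 and 276 CPM against 105 and 108, and Neurod6 at 673, 553, 537 and 558 against 211 and 227. They were 2.75-fold and 2.65-fold lower in the means, and the SF3 control library was the highest. Pan-neuronal Tubb3, a tubulin named after its values were seen, did not separate the sides, at 952, 871, 844 and 814 CPM against 915 and 859. Nefl, a neurofilament subunit, went the other way, at 5.39, 5.21, 4.72 and 3.58 CPM against 11.03 and 11.64.

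Cajal-Retzius cells, the first neurons at the cortical surface, gave a mixed set. Of 12 genes, 9 were called higher and 1 lower (backgrounds 8.74% and 10.6%), with a median of 0.59. Ebf2, an early B cell factor family member, was at 35.6, 49.6, 46.3 and 48.2 CPM against 105 and 110. Reln, the secreted protein that defines these cells, was the one called lower, at 881, 1170, 799 and 1010 CPM against 567 and 668. The list's summed level, dominated by Reln, overlapped between the sides.

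The genes with the largest differences downward were led by Gm14292, described below, and 2810459M11Rik, which was at 9.67, 9.29, 8.41 and 13.4 CPM against 1.23 and 0.864. Gm20521 and Aox4, an aldehyde oxidase, came next, and Aox4 was at 0.840, 0.9996, 0.794 and 1.49 CPM against 0.205 and 0.0864. Both SF5_6 libraries were below the rest for each of the 4. Nos1, the neuronal nitric oxide synthase, was at 45.5, 34.4, 26.3 and 31.1 CPM against 6.01 and 4.93, 6.27-fold lower. Tiam2, an exchange factor for the GTPase Rac, was at 318, 262, 224 and 244 CPM against 47.3 and 52.1. Abcc8, a subunit of ATP-sensitive potassium channels, was at 26.6, 22.1, 19.3 and 19.9 CPM against 4.08 and 3.95. The SF3 control library was the highest for these 3 genes. Kcnh3, a voltage-gated potassium channel, was 5.81-fold lower and Htra1, a secreted protease, 5.43-fold. All 5 had both SF5_6 libraries far below the lowest SF3 or SF4 value. At the other end, Gm13394, a processed pseudogene on chromosome 2, was at 0.637, 0.474, 0.422 and 0.182 CPM against 72.5 and 78.7. Gm14292, also a processed pseudogene, was at 5.82, 5.16, 7.22 and 4.98 CPM against 0.352 and 0.691. Reads of pseudogenes can be shared with parent genes by estimation, so these values are uncertain. Outside the lists the upward genes also held 1700047I17Rik2 (no count in SF3 or SF4, 1.91 and 1.53 CPM in SF5_6, at least 83.3-fold higher) and Bhlhe23, a helix-loop-helix factor (at most 0.0607 CPM against 0.674 and 2.31).

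Transcripts of cells other than neural ones differed as well. Of 15 tested red blood cell genes, 7 were called higher and none lower (backgrounds 8.74% and 10.6%), with a median of 1.45. The summed level was 508, 495, 263 and 266 CPM in SF3 and SF4 and 1285 and 837 CPM in SF5_6. Red cells of the early embryo come from the yolk sac and make embryonic globins, and later ones, from the fetal liver, make adult globins. Hbb-y, an embryonic beta-type globin (chr7:103851749-103853216, minus strand), was at 65.7, 79.4, 17.2 and 18.2 CPM against 474 and 292, and Hbb-bh1 at 0.434, 0.737, 0.323 and 0.243 against 16.8 and 10.8. Hba-x, the embryonic alpha-type globin, was at 9.67, 14.9, 3.10 and 2.92 CPM against 127 and 72.1. Of the adult genes, beta-type Hbb-bs overlapped, at 78.3, 67.8, 25.5 and 29.6 CPM against 32.8 and 34.0, as did Hbb-bt. Adult alpha-type globins did not overlap. All alpha-type counts were 6667, 6878, 2416 and 2111 against 18353 and 10238. Hba-x held 334, 568, 125 and 96 of them, against 4336 and 2501. The rest, Hba-a1 with Hba-a2, was larger in both SF5_6 libraries than in any other. Slc4a1, the anion exchanger of the red cell membrane, was at 2.23, 1.82, 0.794 and 0.668 CPM against 18.5 and 11.7, and Kel and Epb42, both of the red cell membrane, were 32.6-fold and 27.9-fold higher.

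The mix of globins can be read within a library. Embryonic genes made up 36.7%, 46.3%, 31.9% and 32.2% of all beta-type globin counts in SF3 and SF4, and 87.9% and 85.8% in SF5_6. Of the alpha-type counts, Hba-x made up 5.01%, 8.26%, 5.17% and 4.55%, against 23.6% and 24.4%. No 95% Wilson interval of an SF5_6 library reached that of any other library (87.4% to 88.3% and 85.2% to 86.4% for beta-type globins, against at most 47.5%). The intervals cover counting error only. Adult copies were summed because their reads are hard to assign to 1 copy.

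**Figure D4:**
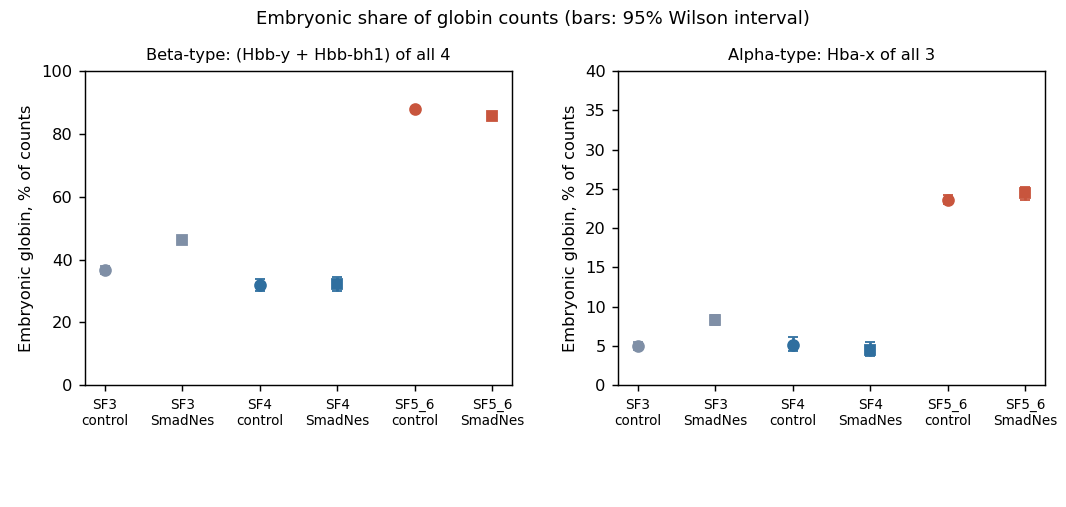
Embryonic genes as a percentage of beta-type (left) and alpha-type (right) globin counts in each library, with 95% Wilson intervals for counting error; the y axes differ. The SF5_6 libraries are at 87.9% and 85.8% on the left and at 23.6% and 24.4% on the right, above the other 4 in both.

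Markers of the meninges and head mesenchyme lay above in both SF5_6 libraries for 17 of 23 genes (background 23.3%). Of the 23, 5 were called higher (background 8.74%), with a median of 0.95. Their summed level was 837, 1151, 639 and 435 CPM against 1350 and 1654 CPM. Lum, a collagen-binding proteoglycan, was at 19.6, 31.1, 14.1 and 8.44 CPM against 48.2 and 65.5, and Col3a1, a fibrillar collagen, at 245, 362, 166 and 98.8 against 436 and 597. The order SF5_6, SF3, SF4 held in both genotypes for both genes. Pdgfrb, a receptor of pericytes and mesenchyme, followed it (10.9, 15.8, 9.98 and 7.38 CPM against 21.03 and 24.57). The part of these cells in the neural differences was not tested.

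Microglial genes did not set SF5_6 apart: none of 20 was called, and for none did both SF5_6 libraries lie above or below the other 4. Their summed level was 249 and 266 CPM in SF3, 41.9 and 37.9 in SF4 and 176 and 200 in SF5_6. SF4 stood low, and SF5_6 lay between SF4 and SF3. Cx3cr1, the fractalkine receptor of microglia, was at 15.8, 16.7, 1.99 and 2.00 CPM against 13.9 and 13.1. The list's median log2 difference was accordingly -0.48 against SF3 alone and 2.34 against SF4 alone. Among 14 endothelial genes none was called and 4 lay above in both SF5_6 libraries (background 23.3%), and the summed level was 25.9 to 34.3 CPM against 35.0 and 34.0.

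Surface epithelial genes were low, summing to at most 12.99 CPM in SF3 and SF4 and to 26.2 and 23.8 CPM in SF5_6. Of 10 tested, 6 were called higher (background 8.74%), among them Krt8, a keratin of simple epithelia, at 0.9554, 0.9996, 1.266 and 0.972 CPM against 3.17 and 2.59. Krt14, a keratin of stratified epithelium, had no count in any library. Of the skeletal muscle list, 4 of 6 tested genes were called higher (background 8.74%). The leading pair was however Pax3 and Pax7, which the diencephalic roof also makes and which the thalamic list holds too. Myf5, a defining muscle factor, had no count, and Myog had 1 count in all.

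**Figure D5:**
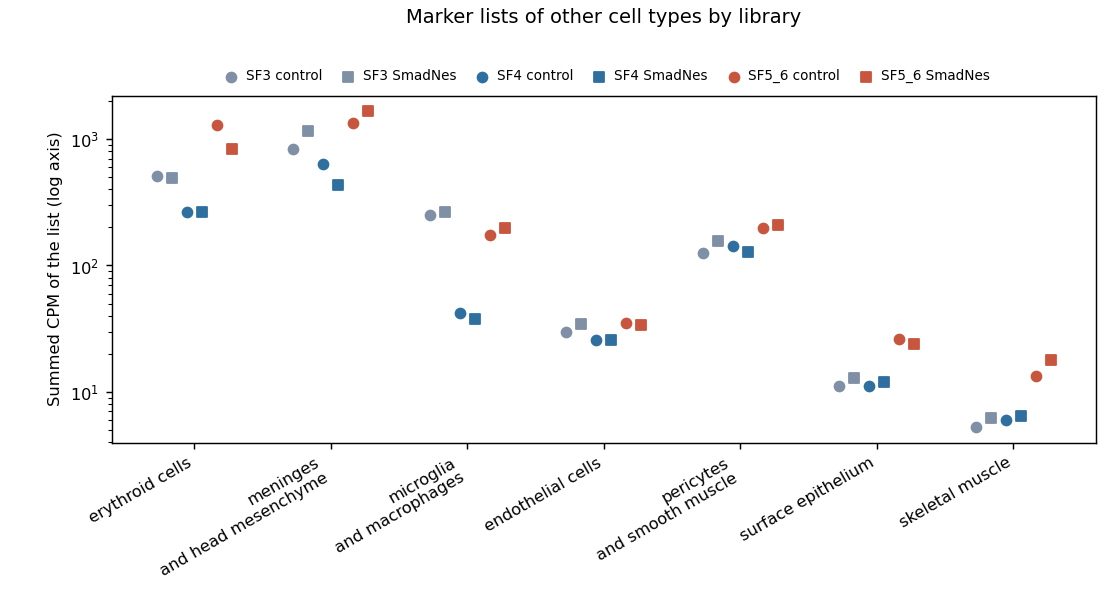
Summed CPM (log axis) of marker lists of non-neural cell types in each library, with SF5_6 in red, SF3 in grey and SF4 in blue, circles for control and squares for SmadNes. SF5_6 libraries are the highest for red cell, mesenchymal, pericyte, epithelial and muscle lists, and SF4 is the lowest for microglia, at 41.9 and 37.9 CPM.

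Lists for sample handling had medians near 0, with single genes apart. Immediate early genes had a median of -0.07 with 3 of 20 called lower (background 10.6%). Mitochondrially encoded mRNAs had -0.11 with 3 of 13 called lower (background 10.6%), and cytosolic ribosomal proteins -0.05. Of 18 p53 target and stress genes, 3 were called higher and 2 lower (backgrounds 8.74% and 10.6%), with a median of 0.09. Pmaip1, a cell death gene induced by p53, was at 1.07, 2.10, 0.844 and 0.820 CPM against 4.22 and 4.09. Mitochondrial transcripts took 2.28% and 2.41% of counts in SF5_6 and 2.29% to 2.54% in the other libraries. Ndrg1, a hypoxia-responsive gene, was at 22.4, 12.2, 11.5 and 10.1 CPM against 4.08 and 3.66, while Slc2a1, the glucose transporter of the same list, was higher (42.9, 44.9, 50.2 and 46.6 against 67.8 and 62.4). Xist and the Y-linked genes overlapped between the sides, and all 6 libraries held both.

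The difference between SF5_6 and the other pools was also computed within each genotype. Of the 3363 called genes, 3362 had the same sign in control and in SmadNes libraries, which follows in part from the way they were called. Across all genes tested, which are not independent replicates, the control and SmadNes differences had a Pearson r of 0.736, each computed from libraries of its own genotype alone. A test of the difference between genotypes (interaction of genotype and side, edgeR, with the Benjamini-Hochberg adjusted p) called 0 genes (0%), with 267 at an unadjusted p below 0.05. DESeq2 called 6 genes, limma-voom 0, and edgeR with no filter on low counts 8. With 1 SF5_6 library per genotype, the spread in that test comes only from SF3 against SF4. The median difference of the hypothalamic list was 3.01 in control and 2.33 in SmadNes libraries, and that of the thalamic list 2.23 and 2.33. Hypothalamic genes went either way: Otp had differences of 7.40 in control and 4.82 in SmadNes libraries, and Sim1 4.04 and 4.27.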

How the data were processed

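RNA of Prominin1-sorted forebrain cells was sequenced from 3 control and 3 SmadNes pools at embryonic day 12.5. Per the labels' protocols, the authors made stranded mRNA libraries, mapped paired reads to GRCm38 with STAR 2.5.3a and estimated expected counts with RSEM 1.3.0 on GENCODE M15. The deposited expected counts are whole numbers without scaling between libraries, for 52636 genes, and the step that made them whole is not stated. The submitters' processing notes also name DESeq2 1.18. Totals were 32997423 to 40744672, so 3 counts correspond to at most 0.0909 CPM. Positions are from GENCODE M21 (52403 genes matched by ID).

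Counts were fitted with edgeR 4.0.16 (R 4.3.3, quasi-likelihood, TMM, filterByExpr) with genotype and side (SF5_6, or SF3 with SF4) as terms, all 6 libraries included, and genes with a Benjamini-Hochberg adjusted p below 0.05 were called. Folds are ratios of mean CPM and log2 differences are those of the fit. Differences within a genotype and SF4 minus SF3 use log2 CPM with a prior count of 2. The fit was checked on simulated counts. Libraries differed by more than sampling noise (chi-square per degree of freedom 6.27 to 50.1), so none was a copy of another. Nothing in the labels says whether pools share litters, so p-values measure only the spread between these samples.

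The pools compared and the 42 gene lists (738 symbols, 2 unmatched) were chosen with earlier results of these data known. Named genes are Prom1, Nes, Smad1 and Smad5, per direction the 15 called genes with the largest log2 difference, at least 1 CPM on the higher side and sides not overlapping, and per list up to 5 members with the largest absolute log2 difference. Markers at or near 0 were also named, and other list members were chosen after their values were seen. Alternatives were DESeq2 1.42.0, limma-voom 3.58.1, DESeq2 size factors, no filter, an adjusted p below 0.01, other pool and genotype terms, SF3 or SF4 alone, and each library left out.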

Additional observations from a re-analysis of the deposited data

Results flagged for a closer look

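The summed level of the rostral patterning centre and septum list was 488 CPM in the SF3 SmadNes library, while the other 3 SF3 and SF4 libraries were at 397, 387 and 385 CPM. The gap to the nearest of these, divided by the range of the 4, exceeded Dixon's critical value, which chance does in about 1 of 20 such groups. Both SF5_6 libraries, at 933 and 768 CPM, lay above it.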

How the results depend on the processing

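Of the genes chosen by the naming rule, no called one changed sign under the alternatives run for single genes, which leave out the unfiltered and single-genotype settings. The count of genes higher in SF5_6 (1520) became 2955 with each pool name its own term (the replicate block), 2470 against SF3 alone, 2397 against SF4 alone and 484 at an adjusted p below 0.01. The count of genes lower in SF5_6 (1843) became 782 at that threshold and 2693 with the replicate block. With 1 library left out the counts ranged from 124 to 1294 higher and from 299 to 1711 lower, the lowest values being those without an SF5_6 library, where the lone SF5_6 library is assumed to vary like the others. For the difference between genotypes (0 genes), 8 were called with no filter and 6 by DESeq2. The cause was not tested. Of 42 list medians, 38 kept their sign under all settings. The exceptions were the pallial-subpallial boundary, Notch and sex-linked lists, all with medians near 0, and microglia (-0.48 to 2.34). Without the genotype term (no replicate block) the counts were 1843 and 2113. Depth limits statements on genes under 0.0909 CPM in a library.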

Other observations

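Some regional genes below the low-count filter were present in 1 SF5_6 library alone, and are given as values chosen after they were seen. Barhl1, a homeobox factor of the caudal diencephalon and mammillary region, had 155 counts (4.47 CPM) in the SmadNes SF5_6 library, 4 in the control SF5_6 library and at most 2 in any other. Nr5a1, the factor that defines ventromedial hypothalamic neurons, had the opposite distribution, with 73 counts (2.14 CPM) in the control SF5_6 library, 3 in the SmadNes one and at most 1 in any other. With 1 library per genotype and pool name, these are differences between single libraries.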
